A study of Mus musculus with 8 samples.

Results

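The genes described here are 10 genes of complement C1q and of splenic macrophages: C1qa, C1qb, C1qc, Cd5l, Csf1r, Fcna, Cd68, Vcam1, Adgre1 and Tgm2. They were followed through every probe set that the array annotation assigns to 1 of these symbols alone, which gave 21 of the 22626 probe sets tested and 10 of 12393 genes. The RNA came from CD4 T cells that were sorted by FACS out of spleens taken at 8 to 12 weeks of age from female mice, and was read on 8 Affymetrix MOE430A arrays. Wild-type mice were C57BL/6 (WT), and mice lacking the aryl hydrocarbon receptor (AhR KO, here KO) had been backcrossed to C57BL/6. All mice received an intraperitoneal injection in corn oil 24 h before they were killed, containing either 10 µg/kg TCDD, a dioxin that is the prototypical ligand of the receptor, or DMSO, its solvent. Each of the 4 groups made by genotype and injection had 2 arrays, and each array carried the pooled RNA of 4 animals, so the spread between arrays is between pools. The labels name no sorting marker other than CD4, and give neither the allele nor the cells in which the receptor gene is deleted. For WT TCDD replicate 1 the labels conflict: a description line points to the knockout, whereas title, source and strain give WT, which was used. The targeted gene did not check the labels: Ahr did not read lower in KO on either of its 2 probe sets, with 6.49 to 7.08 in KO and 6.11 to 6.29 in WT on 1422631_at (difference 0.53; limma, BH adjusted p = 0.0658), and 6.35 to 6.86 and 6.31 to 6.64 on 1450695_at (0.04; 0.906). Whether these sets target deleted or retained sequence was not tested, so KO and WT mean, throughout and in every direction given, the arrays labelled so.

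C1q is the recognition subunit of the classical complement pathway, built from chains encoded by C1qa, C1qb and C1qc, and in the spleen it is made mainly by macrophages and some dendritic cells. It binds immune complexes and dying cells and activates the proteases C1r and C1s, which cleave C4 and C2. Splenic macrophages of the red pulp remove old red cells and dead cells, depend on signals through the receptor encoded by Csf1r, and are commonly recognised by Adgre1 and Vcam1. T cells are not known as a main source of C1q. In bulk RNA, fewer cells of a type and less RNA per cell cannot be told apart.

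Promoter sequences are shown first, because most of the members lay higher in KO and the deleted receptor binds DNA at a short core, GCGTG. RefSeq's promoter table (GRCm38.p6) held an entry for 5 of the 10 genes: C1qb, C1qc, Fcna, Cd5l and Cd68. Each line gives the 250 bases before the annotated start, 5′ to 3′ on the strand of the gene, and capitals mark every match on either strand to any of the motifs searched.

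C1qb promoter, chr4:136886201-136886450, minus strand: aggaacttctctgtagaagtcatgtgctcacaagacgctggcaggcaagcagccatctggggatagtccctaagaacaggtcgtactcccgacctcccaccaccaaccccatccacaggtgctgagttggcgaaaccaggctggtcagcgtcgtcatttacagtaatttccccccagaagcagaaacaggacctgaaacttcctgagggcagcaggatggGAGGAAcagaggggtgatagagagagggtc
C1qc promoter, chr4:136892915-136893164, minus strand: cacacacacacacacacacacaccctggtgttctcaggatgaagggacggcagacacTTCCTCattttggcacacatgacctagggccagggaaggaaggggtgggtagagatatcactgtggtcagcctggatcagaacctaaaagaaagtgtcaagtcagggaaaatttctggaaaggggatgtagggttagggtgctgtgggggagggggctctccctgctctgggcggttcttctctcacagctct
Fcna promoter, chr2:25627975-25628224, minus strand: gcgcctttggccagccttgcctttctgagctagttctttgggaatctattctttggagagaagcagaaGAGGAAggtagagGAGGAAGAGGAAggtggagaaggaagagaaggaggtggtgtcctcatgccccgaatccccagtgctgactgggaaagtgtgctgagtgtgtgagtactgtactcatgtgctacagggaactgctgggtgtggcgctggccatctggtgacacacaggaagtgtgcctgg
Cd5l promoter, chr3:87357631-87357880, plus strand: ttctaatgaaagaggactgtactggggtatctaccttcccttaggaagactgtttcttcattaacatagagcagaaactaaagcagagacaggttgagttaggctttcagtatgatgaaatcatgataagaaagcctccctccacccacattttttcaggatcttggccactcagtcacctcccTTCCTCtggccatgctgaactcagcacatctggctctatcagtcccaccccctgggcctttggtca
Cd68 promoter, chr11:69666171-69666420, minus strand: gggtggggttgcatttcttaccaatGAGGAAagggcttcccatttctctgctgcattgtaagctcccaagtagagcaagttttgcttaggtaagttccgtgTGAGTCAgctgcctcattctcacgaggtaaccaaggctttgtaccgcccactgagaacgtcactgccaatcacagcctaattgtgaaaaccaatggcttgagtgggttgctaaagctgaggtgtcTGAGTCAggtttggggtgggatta

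The motifs searched were GCGTG, the dioxin response core bound by the receptor and its partner ARNT, and its longer form TNGCGTG, which contains it. The others were GAGGAA, a core of sites for the myeloid factor PU.1, TGANTCA, the AP-1 site, and TATAAA, the TATA box. GCGTG was in 0 of the 5 promoters and in 28.2% of all 32851 promoters in the table over the same 250 bases. TNGCGTG was in 0 of 5 and in 4.1% of all. GAGGAA was in all 5 and in 23.3% of all. Counted from the annotated start, it began at −30 in C1qb and at −225 in Cd68. In Cd5l and C1qc it lay on the opposite strand (printed as TTCCTC), at −66 and −193, and Fcna held 3 copies, at −182, −169 and −163. TGANTCA was in 1 of 5, with both matches in Cd68 at −149 and −24, and in 6.75% of all. TATAAA was in 0 of 5 and in 12.4% of all. These matches describe letters in a window and not binding.

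The data were log2 expression values, so a difference of 1 is a 2-fold difference. The members were chosen with earlier results on KO against WT known, so every genotype difference of a member is given as a description, without a test. Values after a mean are SD with n = 4 arrays per genotype. In all, 14 of 21 member probe sets, from 8 of the 10 genes, had all 4 KO arrays above all 4 WT arrays, an order found in 5.67% of all probe sets, and 0 had the reverse order (6.67% of all). Limma called 10 of the 21 higher in KO (1.59% of all probe sets) and 0 lower (1.2% of all), and these counts are what the choice of genes used. The genes C1qa, C1qb, C1qc, Cd5l, Fcna and Cd68, read higher in KO on every probe set they have, Csf1r and Tgm2 on some of theirs, and Vcam1 and Adgre1 on none without overlap.

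**Figure D1:**
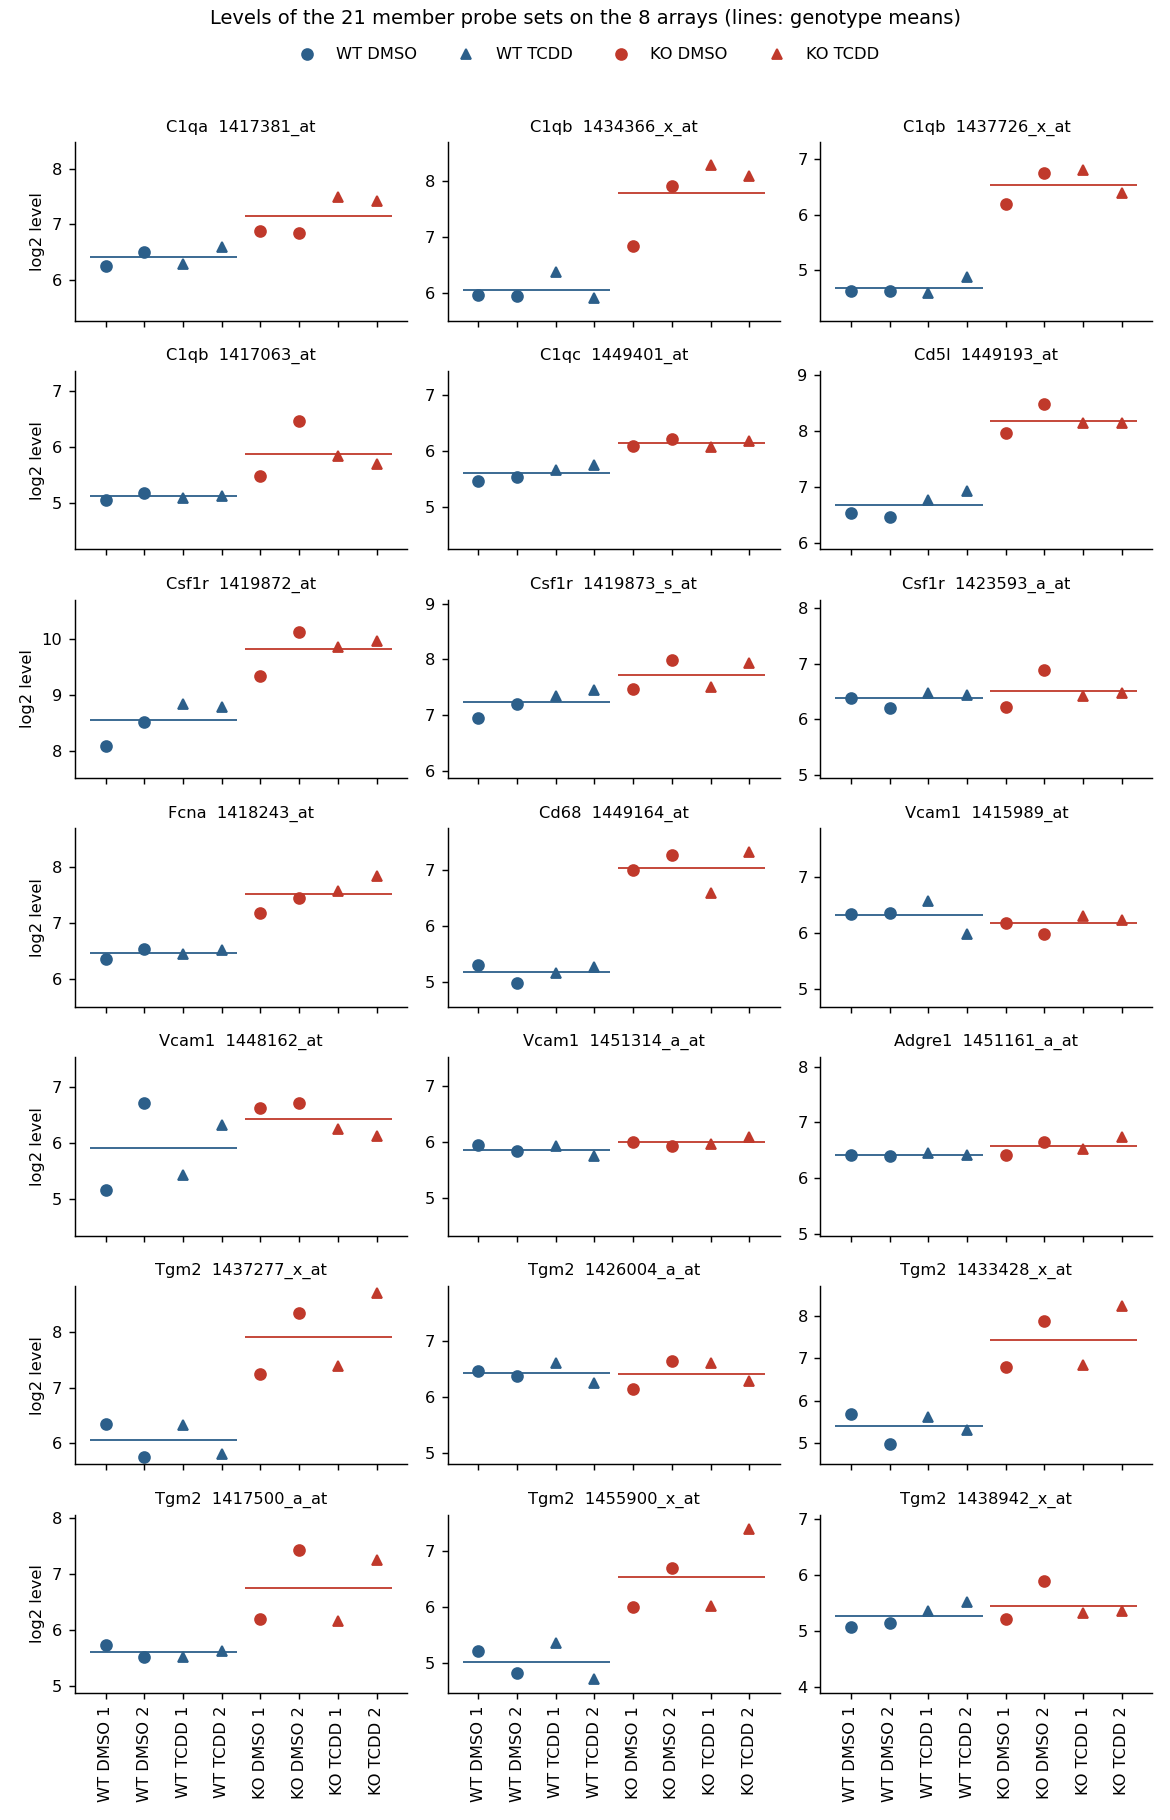
Log2 level (vertical axis) of each of the 21 member probe sets on the 8 arrays (horizontal axis), 1 panel per probe set, with circles for DMSO, triangles for TCDD and lines at the genotype means of 4 arrays. KO arrays lie above WT arrays without overlap in 14 panels, and the 3 Vcam1 panels and the Adgre1 panel show overlap.

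Among the C1q chains, C1qa (probe set 1417381_at) read 6.89 and 6.84 in KO DMSO, 7.49 and 7.42 in KO TCDD, 6.26 and 6.51 in WT DMSO and 6.29 and 6.59 in WT TCDD. The lowest KO array stood 0.25 above the highest WT array, and the KO TCDD arrays were the highest of the 8. The means were 7.16 ± 0.34 in KO and 6.41 ± 0.16 in WT, a difference of 0.75, or 1.68-fold.

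C1qb had 3 probe sets. The brightest, 1434366_x_at, read 6.85 and 7.91 in KO DMSO, 8.30 and 8.10 in KO TCDD, 5.96 and 5.94 in WT DMSO and 6.38 and 5.91 in WT TCDD. KO DMSO replicate 1 was more than 1 log2 unit below the other KO arrays and still 0.47 above the highest WT array. The means were 7.79 ± 0.65 in KO and 6.05 ± 0.22 in WT, a difference of 1.74 (3.35-fold). On 1437726_x_at the KO arrays read 6.20 and 6.75 (DMSO) and 6.80 and 6.39 (TCDD), and the WT arrays 4.64, 4.63, 4.60 and 4.89 (DMSO first). This probe set had the widest gap of all 21, 1.31 between the lowest KO and the highest WT array, and a difference of means of 1.85. The dimmest, 1417063_at, read 5.48 and 6.47 in KO DMSO, 5.83 and 5.69 in KO TCDD, and between 5.05 and 5.18 in WT. All 3 probe sets thus kept the genotypes apart, with differences between 0.76 and 1.85. In Affymetrix naming, x_at marks sets with probes that may also match other transcripts, and the C1qb set without that mark gave the smallest of the 3 differences.

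C1qc (1449401_at) read 6.09 and 6.22 in KO DMSO, 6.08 and 6.19 in KO TCDD, 5.46 and 5.54 in WT DMSO and 5.66 and 5.76 in WT TCDD. Its KO arrays were within 0.14 of each other, the narrowest KO range among the C1q probe sets. The means were 6.14 ± 0.07 and 5.61 ± 0.13, a difference of 0.54 (1.45-fold). C1qc and 2 of the C1qb probe sets had a mean below the median probe set (6.13), where background compresses differences. The genes C1qb, C1qc and C1qa follow each other without another protein-coding gene between them on chromosome 4 in the RefSeq gene table.

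Fcna and Cd5l encode secreted proteins that macrophages release. Fcna is ficolin A, a lectin that starts the lectin pathway of complement with the MASP proteases. It read 7.19 and 7.46 in KO DMSO, 7.57 and 7.85 in KO TCDD, 6.35 and 6.54 in WT DMSO and 6.45 and 6.52 in WT TCDD. All WT arrays lay within 0.19 of each other and 0.65 or more below the KO arrays. The means were 7.52 ± 0.27 and 6.46 ± 0.09, a difference of 1.05 (2.07-fold).

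Cd5l, also called AIM, is an inhibitor of apoptosis in macrophages. It read 7.96 and 8.49 in KO DMSO, 8.15 and 8.14 in KO TCDD, 6.54 and 6.47 in WT DMSO and 6.76 and 6.93 in WT TCDD. The gap between the genotypes was 1.03, and within KO the treatments overlapped. The means were 8.19 ± 0.22 and 6.67 ± 0.21, a difference of 1.51 (2.85-fold).

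Csf1r encodes the receptor for the growth factors CSF1 and IL-34, on which most tissue macrophages depend, and its 3 probe sets differed. On 1419872_at it read 9.34 and 10.13 in KO DMSO, 9.86 and 9.96 in KO TCDD, 8.08 and 8.52 in WT DMSO and 8.83 and 8.78 in WT TCDD, a difference of 1.27 (2.41-fold). The genotypes were 0.51 apart, and WT TCDD arrays read above WT DMSO arrays. On 1419873_s_at the KO arrays ran from 7.47 to 7.99 and the WT arrays from 6.95 to 7.45, only 0.02 apart, with a difference of 0.49. The third, 1423593_a_at, ran from 6.22 to 6.89 in KO and from 6.20 to 6.48 in WT, so the genotypes overlapped and differed by 0.12. The higher reading in KO was therefore not shared by every Csf1r probe set.

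Cd68 encodes a lysosomal glycoprotein of macrophages and other phagocytes. It read 7.0 and 7.27 in KO DMSO, 6.60 and 7.33 in KO TCDD, 5.30 and 4.98 in WT DMSO and 5.16 and 5.27 in WT TCDD. Every KO array was at least 1.30 above every WT array. The means were 7.05 ± 0.33 and 5.18 ± 0.14, a difference of 1.87 (3.66-fold). The mean of this probe set over the 8 arrays, 6.11, lay just below the median probe set (6.13).

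Tgm2 encodes tissue transglutaminase, a protein cross-linking enzyme that macrophages use in the uptake of dead cells. Its set 1433428_x_at read 6.80 and 7.88 in KO DMSO, 6.85 and 8.23 in KO TCDD, 5.69 and 4.98 in WT DMSO and 5.62 and 5.32 in WT TCDD, a difference of 2.04 (4.11-fold). On 1437277_x_at the arrays read 7.24 and 8.34 in KO DMSO, 7.39 and 8.69 in KO TCDD, 6.35 and 5.76 in WT DMSO and 6.33 and 5.82 in WT TCDD, a difference of 1.85. In KO the arrays numbered 2 were the high ones in both treatments, by 1.08 and 1.38 on the first of these sets and by 1.10 and 1.30 on the second, while in WT they were the low ones. The same order within KO held on 1417500_a_at (6.20 and 7.43 in DMSO, 6.17 and 7.25 in TCDD) and on 1455900_x_at (6.00 and 6.70, and 6.02 and 7.41), where KO exceeded WT by 1.16 and 1.51. On the remaining 2 sets the genotypes overlapped: 1426004_a_at differed by −0.01 and 1438942_x_at by 0.18. The sets named x_at, which may also match other transcripts, thus gave 2.04, 1.85, 1.51 and 0.18, and those without that mark 1.16 and −0.01. Of these sets, 1455900_x_at and 1438942_x_at had means below the median probe set.

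Adgre1 and Vcam1, which are commonly used to recognise red pulp macrophages, did not follow the other members. Adgre1 encodes an adhesion receptor of the surface of mouse macrophages. It read 6.41 and 6.65 in KO DMSO, 6.52 and 6.74 in KO TCDD, 6.41 and 6.40 in WT DMSO and 6.45 and 6.41 in WT TCDD. The lowest KO array was among the WT values, and the means of 6.58 ± 0.14 and 6.42 ± 0.02 differed by 0.16 (1.12-fold). Vcam1 encodes an adhesion molecule of macrophages, stroma and activated endothelium that binds the integrin of Itga4 and Itgb1. On 1448162_at it read 6.62 and 6.72 in KO DMSO, 6.26 and 6.12 in KO TCDD, 5.16 and 6.72 in WT DMSO and 5.43 and 6.32 in WT TCDD. The WT arrays numbered 2 lay among the KO arrays and those numbered 1 about 1 log2 unit lower, so the difference was 0.52 over all arrays and 1.13 without both WT arrays numbered 2. The other 2 Vcam1 sets differed by −0.14 (1415989_at) and 0.13 (1451314_a_at), with overlap in both.

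**Figure D2:**
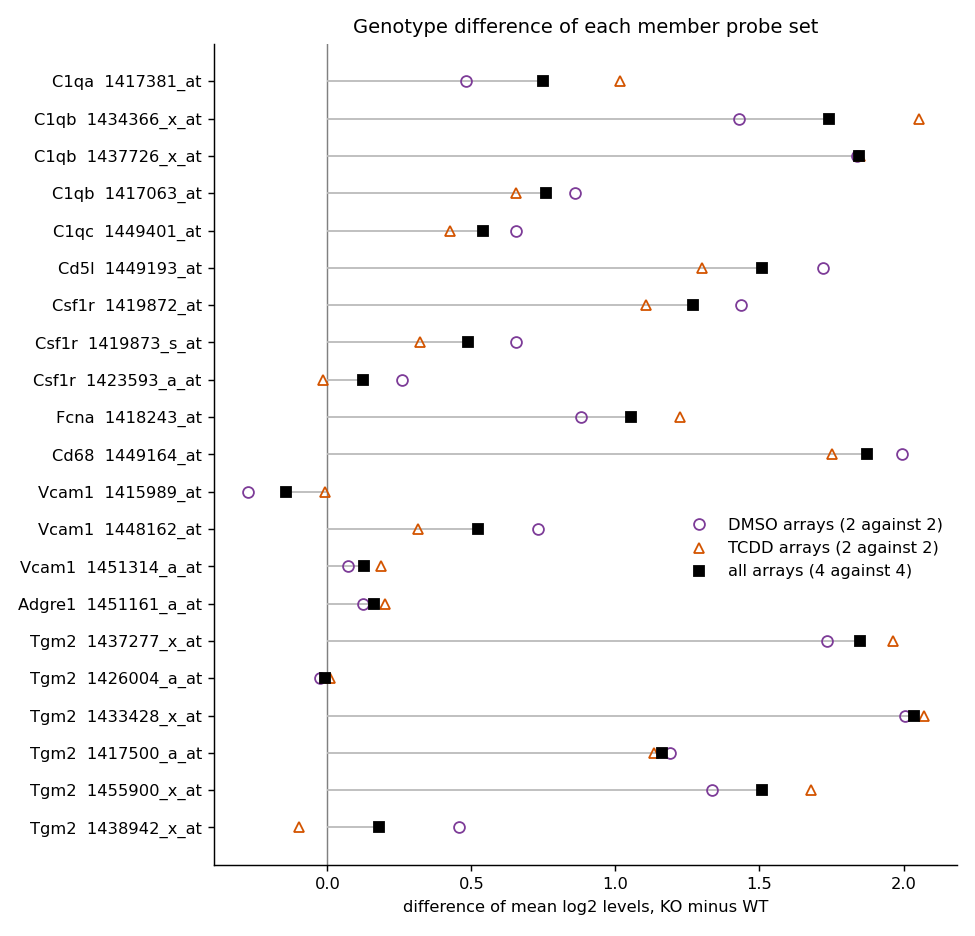
Difference of mean log2 level, KO minus WT (horizontal axis), for the 21 member probe sets (rows), from all arrays (squares, 4 against 4), DMSO arrays (circles, 2 against 2) and TCDD arrays (triangles, 2 against 2). The largest difference is 2.04 (Tgm2, 1433428_x_at), and the sign differs between DMSO and TCDD arrays in 1 Csf1r row and 2 Tgm2 rows.

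With each gene read on its brightest probe set, the median difference over the 10 genes was 1.16, against 0.00 over all 12393 genes. Within the DMSO arrays it was 1.16 and within the TCDD arrays 1.17. Averaged over the 10 genes and set relative to the mean of the 8 arrays, KO arrays stood at 0.21 (KO DMSO replicate 1), 0.63 (KO DMSO replicate 2), 0.52 (KO TCDD replicate 1) and 0.76 (KO TCDD replicate 2). WT arrays stood between −0.60 and −0.42. The members varied more among KO arrays than among WT arrays: the SD was larger in KO for 16 of 21 probe sets, with a median of 0.29 in KO and 0.16 in WT, while over all probe sets these medians were 0.15 and 0.16.

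Facts of the arrays as a whole were as follows. Array medians lay between 6.08 and 6.15. The log2 difference between the 3′ and 5′ actin control sets, a measure of RNA integrity, ran from 3.48 to 3.82 in KO and from 2.90 to 4.56 in WT, lowest on both WT arrays numbered 2 (2.90 and 3.30). With this actin difference as a covariate, limma called 1834 probe sets between KO and WT, against 631 without it. The part of RNA integrity in the member differences was not tested. Without both WT arrays numbered 2 the median difference over the members was 1.24. Of 10 measured T cell markers, 0 were called higher and 0 lower (limma with BH, 1.9% and 1.33% of all genes), and all had means above the median probe set. For Cd4 the KO mean was 8.16 ± 0.09 against 8.37 ± 0.28 (limma, BH adjusted p = 0.452), and for Cd3e it was 9.36 ± 0.17 against 9.53 ± 0.09 (0.395), so defining T cell markers were present in both genotypes. The KO mean was higher for 5 of the 10, by up to 0.90 for Cd5 (limma, BH adjusted p = 0.0644), whose KO arrays all lay above the WT arrays.

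TCDD was a comparison that the choice of genes did not rest on. In WT no member was called between TCDD and DMSO, and differences ran from −0.07 (Vcam1, 1415989_at) to 0.51 (Csf1r, 1419872_at). All 21 adjusted p were 0.997 (limma, Benjamini-Hochberg, BH, over all probe sets). Limma called 0 of 22626 probe sets in this comparison (0.0%), with 631 at an unadjusted p under 0.05 (2.79%) and 0 of the members among them. Both TCDD arrays lay above both DMSO arrays for 6 of 21 member probe sets: the 3 of Csf1r, C1qc, Cd5l and 1 of Tgm2. That order held for 18.9% of all probe sets, and 0 members had the reverse order, found in 10.8% of all. For Cd5l the difference was 0.34 (95% interval −0.10 to 0.78) and for Csf1r 0.51 (−0.14 to 1.15), so with 2 arrays against 2 the intervals reach from below 0 to these upper bounds.

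In KO no member was called either, and all 21 adjusted p rounded to 1 (limma, BH). C1qa read 0.59 higher after TCDD (SE 0.15; 95% interval 0.24 to 0.94; unadjusted p = 0.00581, limma), with both KO TCDD arrays above both KO DMSO arrays. Between 0.56 and 0.63 remained when any 1 KO array was left out. The brightest C1qb set read 0.82 higher (0.00 to 1.64), or 0.29 without KO DMSO replicate 1 and 1.35 without KO DMSO replicate 2, whereas the other C1qb sets differed by 0.12 (−0.43 to 0.67) and −0.22 (−0.93 to 0.50). C1qc differed by −0.02 (−0.29 to 0.25). Fcna read 0.39 higher (0.01 to 0.76). These 3 probe sets of C1qa, C1qb and Fcna were the members with an unadjusted p under 0.05, as were 1.69% of all probe sets (383), and limma called 0 of 22626 (0.0%). Both TCDD arrays lay above both DMSO arrays for 4 of 21 member probe sets (20.5% of all) and below them for 1 (7.14% of all). The remaining members ran from −0.48 (Vcam1, 1448162_at) to 0.37 (Tgm2, 1455900_x_at).

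The TCDD effects of the genotypes did not differ at the threshold for any member. The difference of effects, KO minus WT, was 0.54 for C1qa (95% interval 0.04 to 1.03; unadjusted p = 0.0386; limma, BH adjusted p = 0.998) and ran from −0.56 (Tgm2, 1438942_x_at) to 0.63 (C1qb, 1434366_x_at) over the members. Limma called 0 of 22626 probe sets (0.0%), and 628 had an unadjusted p under 0.05 (2.78%). The interval of this difference reached 0.76 to either side for the median member probe set. The C1qa difference between genotypes was 0.48 among DMSO arrays and 1.02 among TCDD arrays.

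**Figure D3:**
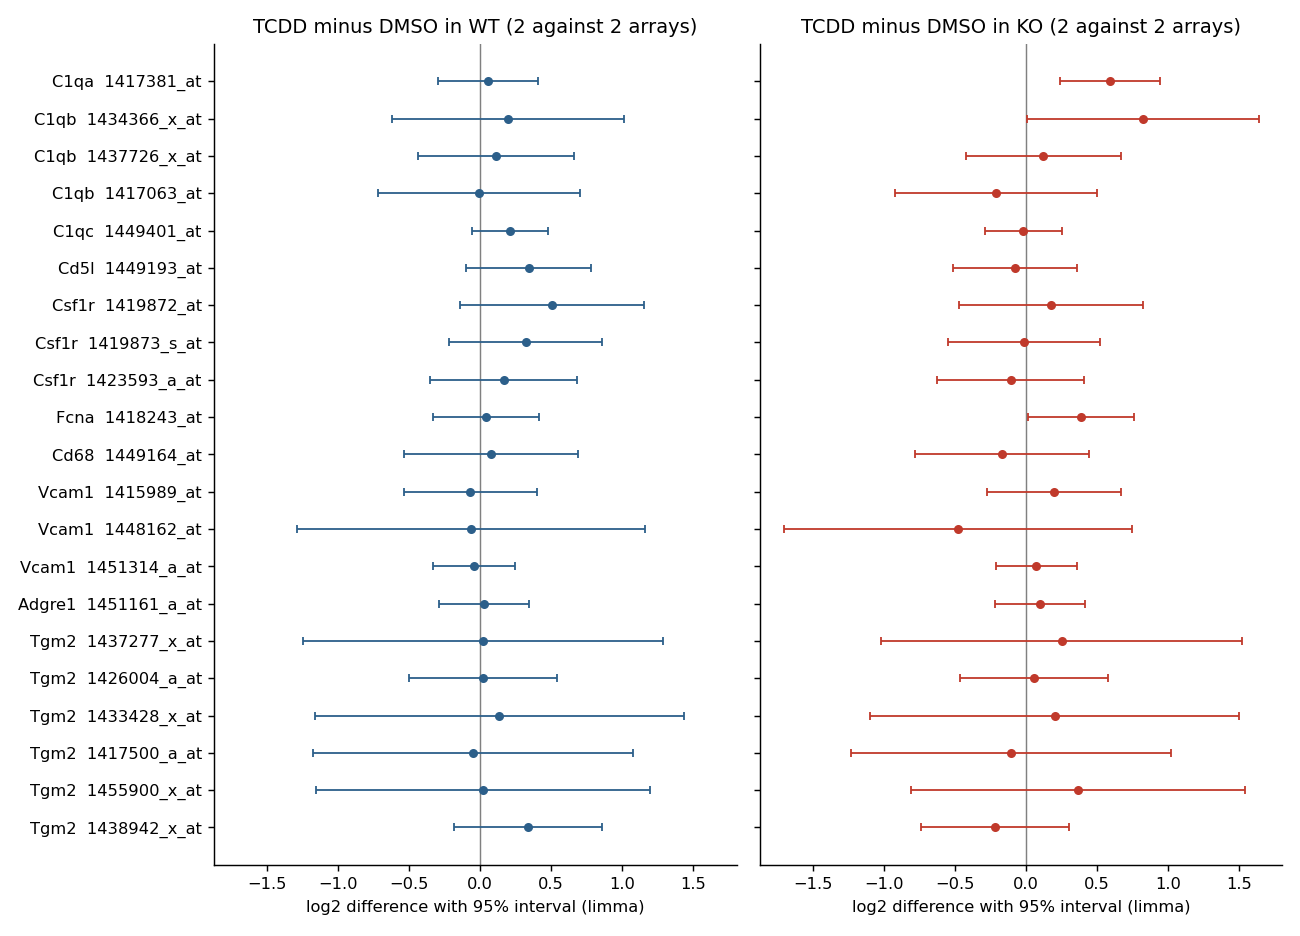
TCDD minus DMSO in log2 units with the 95% interval of limma (horizontal axis) for the 21 member probe sets (rows), in WT (left) and KO (right), 2 arrays against 2. All WT intervals include 0. In KO the intervals of C1qa, 1 C1qb set and Fcna lie above 0 before adjustment, and none passed after it.

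Other complement genes were read from lists that did not include the members, again with 1 probe set per gene. Of 35 measured genes, 1 was called higher in KO and 0 lower (limma, BH; 1.9% and 1.33% of all genes), and their median difference was 0.04. None of the 4 measured genes of the classical pathway passed: the C1q-associated proteases C1ra and C1s1 differed by 0.14 and 0.08, the substrate C2 by −0.15 and the C1 inhibitor Serping1 by −0.01 (limma, BH adjusted p from 0.387 to 0.979), and all had means below the median probe set. Of 5 lectin pathway genes 0 passed, among them Masp1 (−0.10) and Masp2 (0.04), the proteases that act with ficolins. Of 8 genes of the alternative and terminal pathways, C6, a component of the membrane attack complex, rose by 0.46 (6.97 ± 0.14 in KO, 6.52 ± 0.09 in WT; limma, BH adjusted p = 0.0427). That call was lost in 12 of 19 alternatives. With single arrays left out it was lost for all but WT TCDD replicate 1, at differences between 0.41 and 0.51 (limma, BH adjusted p up to 0.124), and without both WT arrays numbered 2 the difference was 0.38 (0.222). Among 18 regulators and receptors, 0 passed: C1qbp differed by 0.36, Calr by −0.08 and Cd93 by −0.01, all of which encode proteins described as binding C1q.

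Of 35 other macrophage markers measured, 2 were called higher in KO and 0 lower (limma, BH; 1.9% and 1.33% of all genes), with a median difference of 0.10. These counts use the brightest probe set of each gene. Sirpa differed by −0.035 on that set, while 1 of its 2 other probe sets was called higher. Mpeg1, a pore-forming protein of phagocytes, rose by 2.27 (9.78 ± 0.53 and 7.51 ± 0.40; limma, BH adjusted p = 0.0106) and was called whichever single array was left out. It was not called without both WT arrays numbered 2, where the difference was 2.27 (limma, BH adjusted p = 0.0856). Apoe, the lipid carrier, rose by 1.24 (7.55 ± 0.26 and 6.31 ± 0.48; limma, BH adjusted p = 0.0362). The Apoe call was lost without KO DMSO replicate 2, either KO TCDD array or either WT DMSO array, at differences between 1.08 and 1.44 over the single arrays left out. All 4 KO arrays lay above all 4 WT arrays for 5 of the 35 genes (6.28% of all genes), and the reverse for 0 (6.71%). Beside Mpeg1 and Apoe these were Hmox1, the haem-degrading enzyme (difference 0.31), Aif1 (0.33) and the Fc receptor gene Fcgr1 (0.23), which did not pass (limma, BH adjusted p = 0.211, 0.122 and 0.147). The list averaged 6.27 to 6.52 in KO arrays and 6.02 to 6.33 in WT arrays, which overlap.

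Genes that define red pulp and marginal zone macrophages were among those not called. Spic, the transcription factor required for red pulp macrophages, read 4.69 and 4.60 in KO and WT, Cd163, a haemoglobin scavenger receptor, 5.21 and 4.95, and Marco, a scavenger receptor of the marginal zone, 5.73 and 5.62, all below the median probe set. The iron exporter Slc40a1 differed by 0.53 and Lyz2, lysozyme, by 0.13, with overlap in both (limma, BH adjusted p = 0.355 and 0.875). For both genes the WT arrays numbered 2 read above those numbered 1. For Slc40a1 they read 7.67 and 7.75 against 6.35 and 6.96, and for Lyz2 7.98 and 7.77 against 6.72 and 6.95. The KO arrays of Slc40a1 ran from 7.52 to 7.99, so its overlap came from the WT arrays numbered 2 alone. Without both WT arrays numbered 2 the Lyz2 difference was 0.65 (limma, BH adjusted p = 0.444). The genes of this paragraph were picked with their values in view. Of the wider macrophage list Mpeg1 and Apoe were thus called, while Spic, Cd163, Marco, Slc40a1 and Lyz2 were not, and Adgre1 and Vcam1 overlapped. The members are referred to by their names. The part of macrophage RNA in the member differences was not tested.

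Among regulators of myeloid cells, 2 of 13 were called higher and 0 lower (limma with BH, 1.9% and 1.33% of all genes). All KO arrays lay above all WT arrays for 4 of the 13 (6.28% of all genes) and below them for 0 (6.71%). The KO mean was the higher one for 11 of the 13. The transcription factor Irf8 rose by 2.97 (9.65 ± 0.40 and 6.68 ± 0.62; limma, BH adjusted p = 0.00787) and the adaptor Tyrobp by 2.49 (10.10 ± 0.52 and 7.61 ± 0.13; limma, BH adjusted p = 0.00465), and both remained called when any 1 array was left out. Without both WT arrays numbered 2, Tyrobp was not called (2.38; limma, BH adjusted p = 0.0595). Spi1, which encodes PU.1, read 6.00 ± 0.18 in KO and 5.52 ± 0.11 in WT, a difference of 0.48 that did not pass (limma, BH adjusted p = 0.053) and passed in 6 of 18 alternatives. The Csf1r ligands Csf1 and Il34 differed by −0.06 and 0.19 and did not pass. Of 21 genes of dead cell clearance 0 were called higher and 0 lower (1.9% and 1.33% of all genes), with Mertk at 0.16 and Mfge8 at 0.12. The KO mean was the higher one for 8 of the 21, and the median difference was −0.055. Abca1 differed most, by −1.235, and was the 1 gene of the list with all KO arrays below all WT arrays (6.71% of all genes). It did not pass (limma, BH adjusted p = 0.0582). Of 10 integrin and adhesion genes related to Vcam1 and Tgm2, 1 was called higher and 0 lower (1.9% and 1.33% of all genes). This was Icam1, which rose by 1.04 (limma, BH adjusted p = 0.0416). Its call was lost on leaving out any array other than WT TCDD replicate 1, with differences between 0.92 and 1.24. Without both WT arrays numbered 2 the Icam1 difference was 0.72 (limma, BH adjusted p = 0.18). Itga4 (−0.36), Itgb1 (−0.08), Itgav (−0.08) and Itgb3 (−0.04) did not pass.

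Of 11 measured dendritic cell markers, 6 were called higher in KO and 0 lower (limma, BH; 1.9% and 1.33% of all genes), their median difference was 0.87, and the list averaged 7.17 to 7.62 on KO arrays and 6.09 to 6.48 on WT arrays. Spib, a transcription factor of plasmacytoid dendritic cells and B cells, rose by 1.66 (limma, BH adjusted p = 0.00467), Bst2 by 1.82 (0.00794) and Ly6d by 1.59 (0.00788), each called whichever single array was left out. Without both WT arrays numbered 2, Bst2 (1.59) and Ly6d (1.39) were not called (limma, BH adjusted p = 0.0835 and 0.0745). Ccr9 rose by 2.16 (limma, BH adjusted p = 0.0255; lost without either KO TCDD array, WT DMSO replicate 2 or WT TCDD replicate 2, lowest difference 1.88) and Tcf4 by 1.70 (0.0261; lost without KO DMSO replicate 2, KO TCDD replicate 2, WT DMSO replicate 2 or WT TCDD replicate 2, lowest difference 1.54). On leaving out both WT arrays numbered 2, Ccr9 (1.49) and Tcf4 (1.38) were not called (limma, BH adjusted p = 0.0561 and 0.142). Of the other probe sets of these genes, 1 of 2 for Ccr9 and 2 of 5 for Tcf4 were called higher, and 0 lower. Flt3, a growth factor receptor of dendritic cells and their precursors, rose by 0.87 (limma, BH adjusted p = 0.0289), a call lost without KO DMSO replicate 2, either KO TCDD array, WT DMSO replicate 2 or WT TCDD replicate 2 (lowest difference 0.77), and without both WT arrays numbered 2 (0.67). Of the 5 not called, Batf3 had all KO arrays above all WT arrays (0.60; limma, BH adjusted p = 0.0502), and Itgax (0.37), Cd209a (0.27), Zbtb46 (0.21) and Xcr1 (0.01) overlapped. The part of dendritic cell RNA in the member differences was not tested.

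Of the 9 NK and CD8 T cell markers, 1 was called higher and 0 lower (1.9% and 1.33% of all genes). This was Nkg7, which rose by 1.38 (limma, BH adjusted p = 0.0214). Its call was lost without either KO TCDD array, WT DMSO replicate 2 or WT TCDD replicate 2, with a lowest difference of 1.24. Without both WT arrays numbered 2 the Nkg7 difference was 1.30 (limma, BH adjusted p = 0.133). All KO arrays lay above all WT arrays for 1 of the 9, Nkg7 (6.28% of all genes), and below them for 3 (6.71%). These 3 were Eomes (−0.25), Prf1 (−0.24) and Cd8a (−0.15), which did not pass (limma, BH adjusted p = 0.166, 0.183 and 0.273). Counts of called genes were 0 of 9 for B cells, 0 of 10 for monocytes and neutrophils, 0 of 6 for erythroid cells, 0 of 12 for endothelium and stroma and 0 of 5 for platelets, with medians between −0.08 and 0.11. Cd79a, a B cell receptor component, read 5.59 ± 0.20 and 5.67 ± 0.05, Cd8a 5.62 and 5.77, and the haemoglobin gene Hba-a1 5.31 and 5.23, in KO and WT, all below the median probe set. Other genes of these lists read higher in KO without passing: Blnk by 0.48, with no overlap, and Cd79b by 0.67 among B cell markers, and Slc4a1 by 0.63 and Alas2 by 0.40 among the erythroid genes (limma, BH adjusted p = 0.0753, 0.374, 0.092 and 0.163). All 6 erythroid genes had KO means above WT means, against 4 of the 9 B cell markers, whose median difference was −0.03. The part of these cells' RNA in the member differences was not tested.

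**Figure D4:**
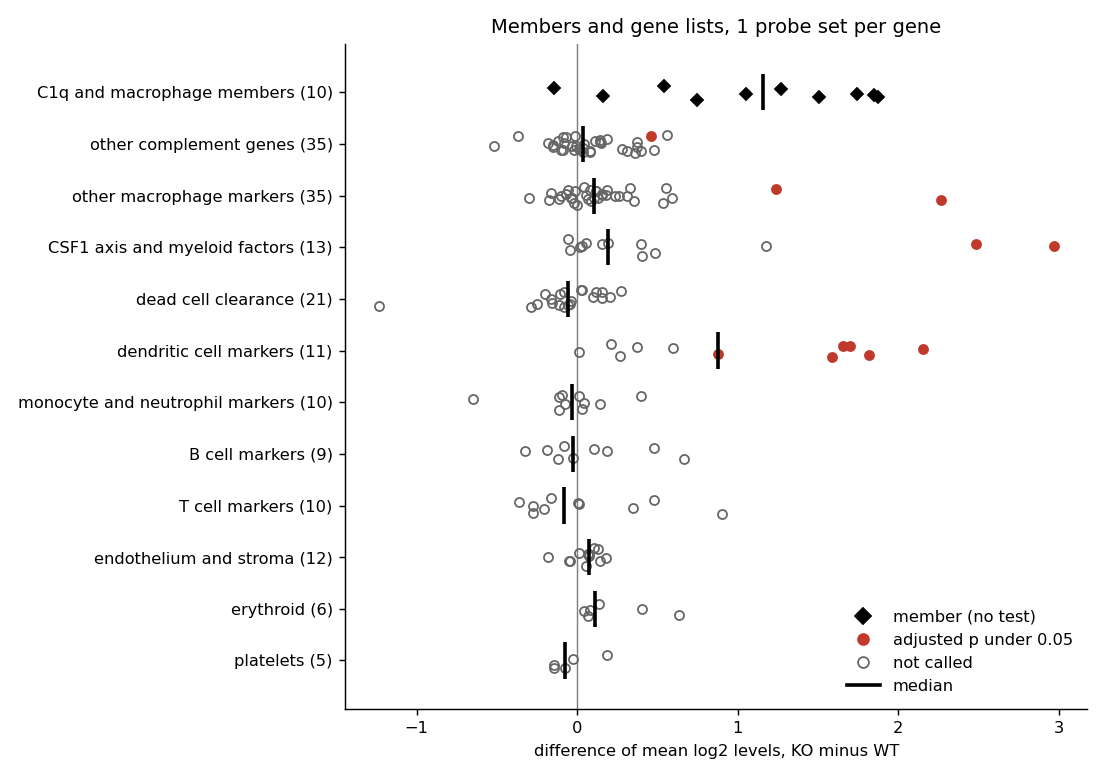
Difference of mean log2 level, KO minus WT (horizontal axis), for the 10 members (diamonds) and for the measured genes of 11 lists (circles, filled where limma's BH adjusted p is under 0.05), 1 probe set per gene, with bars at the medians. The members have a median of 1.16 and dendritic cell markers one of 0.87, while the other lists have medians between −0.08 and 0.19.

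The genes with the most similar profile to each member were ranked by the root mean square difference between mean-centred profiles over the 8 arrays, among 7396 non-member genes with a probe set above the median level. Being ranked by likeness, they are a description. Cd68 came closest to Plac8 (0.14), H2-Aa (0.17), a class II chain, and Ly86 (0.19). Fcna came closest to Ctcf (0.13), Ifi30 (0.16) and Tgfbi (0.17), and Cd5l to Spib (0.20), Tbc1d8 (0.21) and Cd300a (0.25). Csf1r lay nearest to Cd300a (0.25), Ctcf (0.25) and Klrg1 (0.28). Tgm2 lay nearest to H2-Eb1 (0.24), another class II chain, Bcl11a (0.24) and Tcf4 (0.24), the last 2 being transcription factors of plasmacytoid dendritic cells, and C1qb to Ly6d (0.36), Spib (0.36) and H2-DMa (0.38).

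The members with small differences had other neighbours. C1qa was nearest to Sdhb (0.14), 0610012G03Rik (0.14) and Pura (0.15), C1qc to Rnf157 (0.09), Akr1a1 (0.10) and Unc119b (0.10), Vcam1 to Srprb (0.06), Cav2 (0.06) and BC004004 (0.06), and Adgre1 to Sox13 (0.04), Fcgr4 (0.05) and Mpp2 (0.05). Between members, the closest pairs were C1qc and Adgre1 (0.21), C1qa and Fcna (0.21) and Cd5l and Csf1r (0.22), and the farthest was Vcam1 and Tgm2 (1.11). C1qa and C1qc lay 0.26 apart, and C1qb lay 0.61 from C1qa and 0.73 from C1qc, farther than from Csf1r (0.39) and Cd5l (0.40). All distances used the brightest probe set of each member, which for C1qb is 1434366_x_at. That set may also match other transcripts and differed by 1.74 between genotypes, against 0.76 for the C1qb set 1417063_at. Distances from the other C1qb sets were not computed, so this order holds for the brightest set only. A small distance here means similar size as well as similar order of the differences.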

How the data were processed

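The deposited values were log2 expression per probe set, which the authors made with RMA and affy (per the submitters' processing notes), with versions not given in the sources used here. RMA corrects background, normalises arrays to each other and summarises probes, which compresses differences of dim probe sets. Samples were grouped by title. Of 22690 probe sets, 64 controls were left out and 22626 tested. In the annotation, 20380 had 1 symbol, 691 several and 1555 none, and 20351 were matched by Entrez identifier to RefSeq (GRCm38.p6), with 0 symbols changed. The number of arrays limits the precision. No 2 arrays shared more than 2.85% of values.

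KO was compared with WT with limma 3.58.1 (R 4.3.3, lmFit and eBayes) over all arrays, and TCDD with DMSO in a model of 4 group means, with Benjamini-Hochberg adjustment over all probe sets and a threshold of 0.05. These fits were tested on simulated data. P-values measure the spread between pools. The members, the 16 gene lists, tests and alternatives were chosen with earlier results of these data known. Named genes were the members, up to 5 called genes per list by size, ligands and partners of members, a few markers and the 3 nearest profiles per member, with C2, Serping1, Hmox1, Aif1, Fcgr1, Sirpa, Abca1, Cd5, Cd79b, Blnk, Slc4a1, Alas2, Eomes, Prf1, 6 dendritic cell markers and the red pulp and marginal zone genes added after their values were seen. Lists used the probe set with the highest mean per gene. Genes without a probe set of their own, such as C3 and C4b, were not analysed here. Alternatives were a replicate block, other scaling, a filter on dim probe sets, other limma settings and arrays left out.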

Additional observations from a re-analysis of the deposited data

Results flagged for a closer look

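In the 42 sets of 4 arrays examined (21 member probe sets in each genotype), 2 had an array far from the other 3, where chance gives about 1 in 20. For the C1qb set 1434366_x_at, WT TCDD replicate 1 read 6.38, while the other WT arrays read 5.91 to 5.96. For the C1qb set 1437726_x_at, WT TCDD replicate 2 read 4.89, while the others read 4.60 to 4.64. Both arrays remained below every KO array on these sets. The 2 sets are of 1 gene and the outlying array was not the same.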

How the results depend on the processing

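The median member difference between KO and WT ran from 1.06 to 1.30 over the alternatives, and was 1.16 with a replicate block. Of 294 values of single member probe sets under alternatives, 289 moved by less than the spread between arrays. The 5 others were C1qc (0.66 and 0.43 in DMSO and TCDD arrays), 1 Tgm2 set (0.46 and −0.10) and 1 Vcam1 set. The count of probe sets called by limma between KO and WT, 631, was 1834 with the actin covariate, 1604 with array weights, 985 after quantile normalization again, 161 in the model of 4 group means, 28 without both WT arrays numbered 2, and 109 to 667 with 1 array left out. It was 0 in DMSO arrays only and 0 in TCDD arrays only, where 1545 and 2832 had an unadjusted p under 0.05. The split of higher and lower calls, 360 and 271, was 375 and 184 after median centring and 424 and 460 without dim probe sets. The 1 other complement gene called became 0 in DMSO or TCDD arrays only, with eBayes trend and robust settings, in the model of 4 group means, without both WT arrays numbered 2, and was 0 to 1 with 1 array left out (limma; at least 2 with an unadjusted p under 0.05 each time). The 2 other macrophage genes became 0 in DMSO or TCDD arrays only (limma; 4 and 3 with an unadjusted p under 0.05), 1 in the model of 4 group means, 1 without both WT arrays numbered 2, and 1 to 2 with 1 array left out. The causes were not tested. TCDD comparisons and their difference kept 0 calls by limma in all alternatives. Number 1 minus number 2 correlated by 0.626 between the WT groups and 0.117 between the KO groups, and from −0.293 to 0.216 across genotypes, so the numbers were not taken as pairs over all groups. With a replicate block the TCDD comparisons had 0 calls (limma), and the block gave 801 calls between KO and WT. Dim probe sets and 2 arrays a group limit what TCDD differences could be seen.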

Other observations

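The protein-coding genes that flank the C1q genes on chromosome 4 were read as well, an addition made after the member values were seen: the 4 nearest measured genes on each side in the RefSeq gene order. None was called between KO and WT (limma, BH adjusted p from 0.177 to 0.935). On 1 side, Kdm1a, a histone demethylase, read 9.29 ± 0.12 in KO and 9.06 ± 0.09 in WT, Htr1d differed by 0.19, Tex46 by 0.08 and Luzp1 by 0.06. On the other side, Epha8 differed by −0.17, Wnt4 by 0.05, Cdc42, a small GTPase, by −0.05 and Cela3b by 0.03 (SD, n = 4 each).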
